A study of Mus musculus with 28 samples.

Results

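Messenger RNA of 9 genes characteristic of the projection neurons of the striatum was measured in mouse frontal cortex. They were taken by gene symbol (Drd1, Drd2, Adora2a, Ppp1r1b, Rgs9, Pde10a, Penk, Six3 and Isl1), a rule that uses no measured value although the list was drawn up with earlier results of these data known, and are 9 of the 15263 genes listed in either of the deposited tables. All 9 were in both tables, which had 14888 genes in common. The genes were followed across the 4 groups of mice and in single libraries, with the question of how evenly tissue from below the cortex entered the dissections.

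The striatum lies directly beneath the frontal cortex, and most of its neurons are inhibitory projection neurons of a direct and an indirect pathway. Neurons of the direct pathway carry the dopamine receptor D1 (Drd1). Those of the indirect pathway carry the dopamine receptor D2 (Drd2), the adenosine receptor Adora2a and preproenkephalin (Penk). Both kinds hold DARPP-32 (Ppp1r1b), a phosphatase inhibitor regulated by dopamine, the G-protein regulator Rgs9 and the cyclic nucleotide phosphodiesterase Pde10a. Six3 and Isl1 are transcription factors. In mice, Six3 is needed for the formation of indirect-pathway neurons, and Isl1 acts in direct-pathway neurons and in cholinergic neurons of the striatum and basal forebrain. Several of these genes are also transcribed in cortex: Drd1 and Ppp1r1b in deep-layer neurons, and Penk in some interneurons.

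RNA came from 28 male C57Bl/6 mice in 2 cohorts, with 1 library per mouse. Mice under chronic social stress (CSS, 8 mice, 21 weeks old) were isolated for 7 weeks with social confrontations during the last 20 days, and were set against 8 controls of the same age (CSS_control). Mice with induced type 2 diabetes (T2D, 6 mice, 30 or 31 weeks old) had received 75 mg/kg streptozotocin, which destroys insulin-producing cells, and a diet with 43.2% of energy from fat for 21 weeks, and were set against 6 controls of the same ages (T2D_control). No transgene or mutation is named in the labels for any group. One hemisphere was kept in RNAlater until its frontal cortex was cut out, so that each library rests on a single dissection of 1 brain. In such bulk tissue, fewer cells of a type and less RNA per cell cannot be told apart.

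The promoters of 6 of the 9 genes were in the RefSeq set used here (GRCm38.p6, 250 bases before to 50 after the start of transcription), and 4 are shown. Drd1, Drd2 and Rgs9 are shown because they moved together between libraries in both cohorts, and Isl1 because it left that pattern in the CSS cohort. Capitals mark a GC box (GGGCGG or its complement CCGCCC) or the short form of a cyclic AMP response element (TGACG or CGTCA); each is written 5′ to 3′ on the strand of the gene, and neither motif contains the other.
Drd1, chr13:54055609-54055908, minus strand: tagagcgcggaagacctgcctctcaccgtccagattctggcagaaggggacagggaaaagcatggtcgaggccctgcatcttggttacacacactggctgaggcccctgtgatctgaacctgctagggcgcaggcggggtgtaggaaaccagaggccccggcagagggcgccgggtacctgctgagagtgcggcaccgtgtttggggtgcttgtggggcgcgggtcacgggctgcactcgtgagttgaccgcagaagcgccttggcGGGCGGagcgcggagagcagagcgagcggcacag
Drd2, chr9:49340153-49340452, plus strand: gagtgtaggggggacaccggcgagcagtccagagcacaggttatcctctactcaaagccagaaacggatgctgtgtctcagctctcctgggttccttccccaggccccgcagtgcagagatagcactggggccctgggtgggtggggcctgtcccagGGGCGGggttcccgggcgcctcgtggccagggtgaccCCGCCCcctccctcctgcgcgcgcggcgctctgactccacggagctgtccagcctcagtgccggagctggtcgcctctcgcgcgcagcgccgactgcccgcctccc
Rgs9, chr11:109298132-109298431, minus strand: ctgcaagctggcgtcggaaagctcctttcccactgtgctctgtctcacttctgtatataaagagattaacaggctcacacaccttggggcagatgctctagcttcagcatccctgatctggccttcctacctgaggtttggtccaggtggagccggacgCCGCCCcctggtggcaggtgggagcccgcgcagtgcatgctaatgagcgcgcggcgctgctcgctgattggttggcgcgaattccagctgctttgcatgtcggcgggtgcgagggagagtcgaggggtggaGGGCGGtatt
Isl1, chr13:116309639-116309938, minus strand: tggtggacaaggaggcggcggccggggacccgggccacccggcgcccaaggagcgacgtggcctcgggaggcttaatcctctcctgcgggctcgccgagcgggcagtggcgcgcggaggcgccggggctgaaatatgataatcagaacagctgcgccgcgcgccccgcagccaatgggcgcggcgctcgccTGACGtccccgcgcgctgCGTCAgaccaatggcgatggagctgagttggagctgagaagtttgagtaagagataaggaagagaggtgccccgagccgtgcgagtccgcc

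The Drd1 window held 1 GC box, starting 16 bases after the transcription start. Drd2 had 2, starting 93 and 56 bases before it, and Rgs9 had 2, starting 91 bases before and 40 bases after it. The Isl1 window held no GC box and 2 short response elements, starting 59 and 41 bases before its transcription start. A GC box occurred in 35.7% of all 32851 promoters of that length, and a short response element in 20.8%. The full element TGACGTCA was in 1.79% of them and in none of these 4. GC content of the windows shown was 65.7% for Drd1, 70.3% for Drd2, 60.3% for Rgs9 and 69.0% for Isl1, beside a median of 52.7% over all promoters. Of the genes not shown, Six3 had neither motif and a GC content of 50%, and Pde10a windows 1 and 2 each held 1 GC box. These matches describe the letters of the windows and no binding was measured.

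Estimated counts per library summed to between 15.2 and 21.9 M in CSS mice, between 14.3 and 37.5 M in CSS_control mice, between 14.3 and 22.7 M in T2D mice and between 12.1 and 21.6 M in T2D_control mice. RNA integrity numbers (RIN) lay between 9.0 and 10.0 in CSS mice, 9.3 and 10.0 in CSS_control mice, 8.7 and 9.4 in T2D mice and 8.5 and 9.8 in T2D_control mice. Here M stands for 1000000 counts, and levels are given in CPM, the count of a gene per M of its library after TMM scaling of the totals. Markers of cortical excitatory neurons were present in all groups. Slc17a7, the vesicular glutamate transporter of cortical neurons, averaged 569 ± 88.3 CPM in CSS, 544 ± 101.3 CPM in CSS_control, 560 ± 148 CPM in T2D and 632 ± 103 CPM in T2D_control (SD, n = 8, 8, 6 and 6). Tbr1, a transcription factor of deep-layer cortical neurons, averaged 57.4 ± 13.02 CPM in CSS, 60.3 ± 8.43 CPM in CSS_control, 56.2 ± 22.6 CPM in T2D and 63.1 ± 9.14 CPM in T2D_control. The striatal genes were thus read in tissue that carried its labelled cortical markers throughout.

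Drd1 (chr13:54051183-54055705, GRCm38 with GENCODE M21, minus strand) spanned 72.3 to 106 CPM in CSS mice with a median of 91.6 CPM, and 68.1 to 116 CPM in CSS_control mice with a median of 84.7 CPM. In T2D mice Drd1 spanned 15.3 to 152 CPM with a median of 108 CPM, and in T2D_control mice 26.6 to 108 CPM with a median of 61.9 CPM. The T2D cohort thus held both the lowest and the highest Drd1 levels of the series, and its groups overlapped, as did those of the CSS cohort. Drd2 (chr9:49340627-49408177, plus strand) had a lowest, median and highest level of 15.3, 26.1 and 34.4 CPM in CSS mice and of 18.1, 30.9 and 48.2 CPM in CSS_control mice. In T2D mice they were 3.12, 30.5 and 44.4 CPM, and in T2D_control mice 4.84, 17.5 and 41.0 CPM. Adora2a (chr10:75316877-75334784, plus strand), which couples to adenylyl cyclase in the opposite sense to Drd2, spanned 29.8 to 47.7 CPM in CSS mice (median 38.3 CPM) and 29.5 to 67.9 CPM in CSS_control mice (median 44.6 CPM). It spanned 9.24 to 64.7 CPM in T2D mice (median 54.3 CPM) and 7.16 to 66.2 CPM in T2D_control mice (median 25.7 CPM). For both indirect-pathway receptors the groups again overlapped within each cohort.

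Among the signalling genes, Ppp1r1b (chr11:98348404-98357796, plus strand) spanned 126 to 208 CPM in CSS mice (median 166 CPM) and 143 to 289 CPM in CSS_control mice (median 194 CPM). It spanned 40.6 to 268 CPM in T2D mice (median 193 CPM) and 48.5 to 264 CPM in T2D_control mice (median 116 CPM). A share of 15.7% of its exon bases overlaps exons of a gene on the opposite strand, and whether strand was used in counting is not given in the sources used here. Rgs9 (chr11:109225355-109298129, minus strand) spanned 93.2 to 153 CPM in CSS mice and 93.8 to 199 CPM in CSS_control mice, with medians of 128 and 149 CPM. In T2D mice it spanned 22.8 to 203 CPM and in T2D_control mice 35.5 to 181.98 CPM, with medians of 165 and 95.2 CPM. Both genes were lowest of all in a T2D library while the other T2D libraries lay above the T2D_control median. Pde10a (chr17:8525372-8986648, plus strand) spanned 309 to 544 CPM in CSS mice (median 439 CPM) and 351 to 865 CPM in CSS_control mice (median 550 CPM). It spanned 149 to 702 CPM in T2D mice (median 483 CPM) and 199 to 541 CPM in T2D_control mice (median 314 CPM).

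Penk (chr4:4133531-4138819, minus strand), the precursor of the enkephalin peptides, spanned 149 to 257 CPM in CSS mice with a median of 184.1 CPM, and 164 to 373 CPM in CSS_control mice with a median of 265 CPM. In T2D mice it spanned 41.7 to 305 CPM with a median of 221 CPM, and in T2D_control mice 45.3 to 314 CPM with a median of 107 CPM. All 8 CSS libraries were below the CSS_control mean of Penk, although the ranges overlapped, and 14.3% of its exon bases overlap a gene on the opposite strand. The transcription factors were scarce. Six3 (chr17:85613608-85629302, plus strand) spanned 1.72 to 5.68 CPM in CSS mice (median 3.82 CPM) and 1.75 to 5.75 CPM in CSS_control mice (median 3.64 CPM), and 1.09 to 5.53 CPM in T2D mice (median 4.36 CPM) and 0.505 to 5.59 CPM in T2D_control mice (median 1.88 CPM). Isl1 (chr13:116298281-116309689, minus strand) spanned 3.08 to 14.7 CPM in CSS mice (median 7.48 CPM) and 4.54 to 12.6 CPM in CSS_control mice (median 6.43 CPM), and 1.56 to 14.2 CPM in T2D mice (median 8.33 CPM) and 0.555 to 7.48 CPM in T2D_control mice (median 3.12 CPM). Neither gene separated the groups of a cohort. Per kilobase of exon, mean levels were highest for Penk, at 119 CPM per kb in CSS, 159 in CSS_control, 130 in T2D and 86.9 in T2D_control, and lowest for Six3, at 0.644, 0.697, 0.745 and 0.413 CPM per kb in the same groups.

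**Figure D1:**
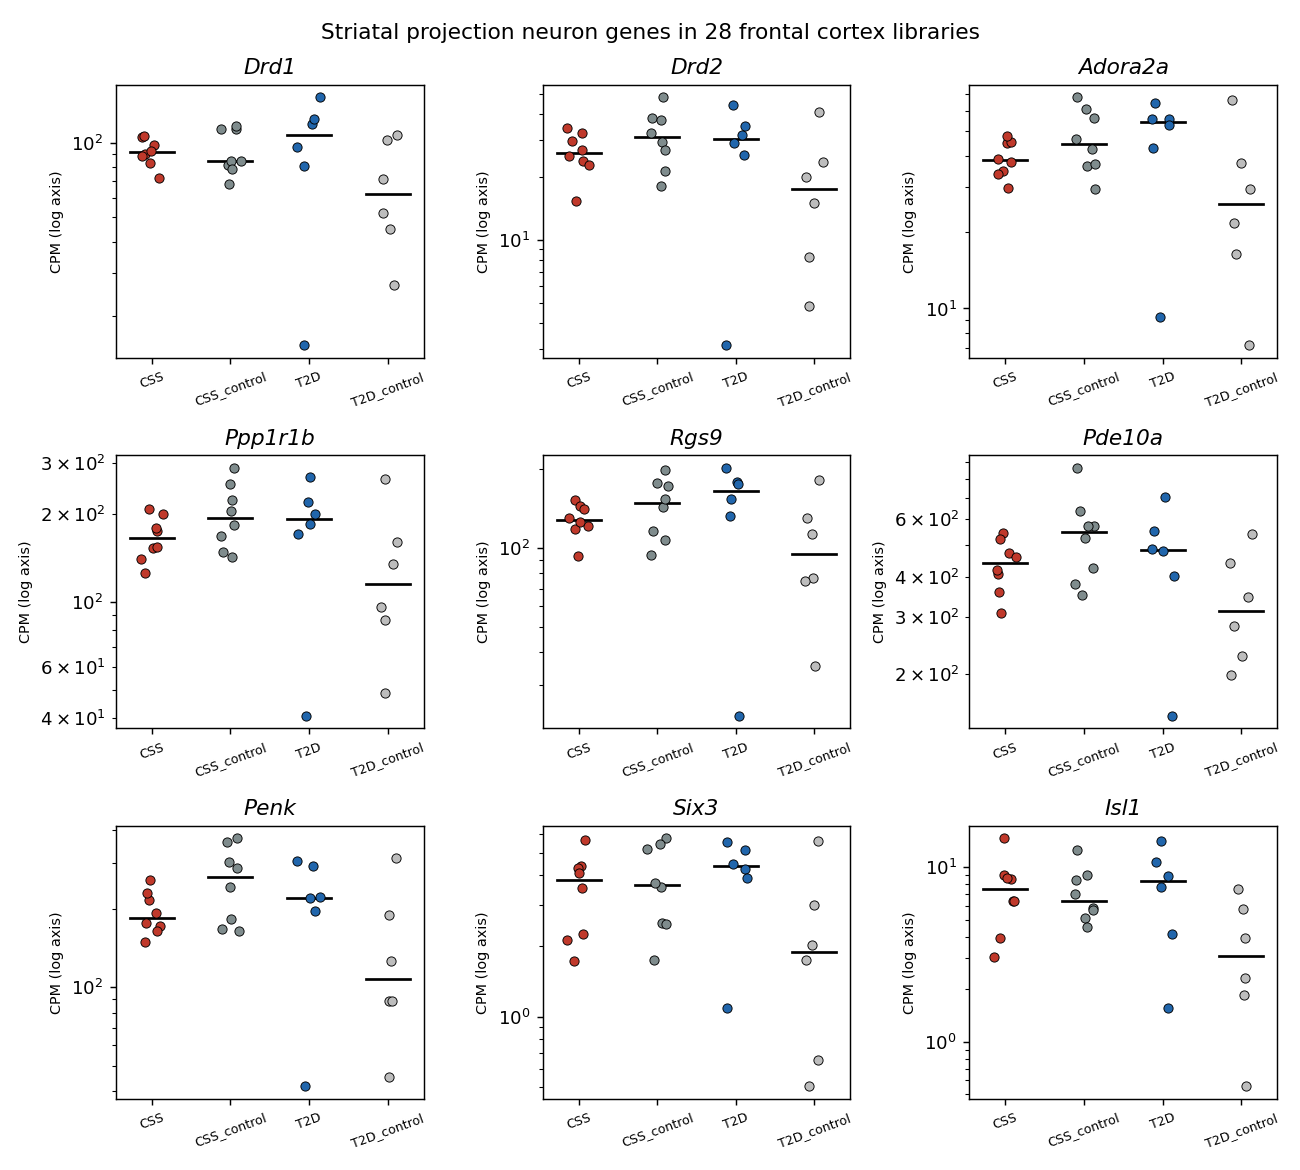
CPM (log axis) of each gene in each of 28 libraries, by group; points are libraries and bars are medians. The T2D cohort spans a wider range than the CSS cohort for every gene, with 1 T2D library far below the other 5 for most genes.

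Across the 4 groups, T2D_control mice had the lowest mean for all 9 genes. For Drd2, Adora2a, Ppp1r1b, Rgs9, Pde10a and Penk the order of the means, high to low, was CSS_control, T2D, CSS and T2D_control. For Drd1 and Six3 it was T2D, CSS_control, CSS and T2D_control. Of 27 pairs of neighbours in these orders, 26 differed by less than the larger of their 2 SDs. The exception was Isl1, which averaged 7.29 ± 2.67 CPM in CSS_control and 3.65 ± 2.60 CPM in T2D_control (SD, n = 8 and 6). The cohorts differed in age and were deposited as separate tables, so levels set across them are a description.

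In the T2D cohort the genes varied far more between single libraries than most genes did. From the lowest to the highest library, Drd1 differed 9.97-fold, Drd2 14.2-fold, Adora2a 9.24-fold, Ppp1r1b 6.60-fold, Rgs9 8.89-fold, Pde10a 4.71-fold, Penk 7.52-fold, Six3 11.1-fold and Isl1 25.7-fold. The median such range over all genes of the cohort, on log2 CPM with a prior count of 2, was 1.64-fold. The fold ranges of the single genes carry no prior count. Those of Six3 and Isl1 start from 0.505 CPM in T2D_control library 1 and 0.555 CPM in T2D_control library 6, and so rest on few counts. On the scale with the prior count the range of Pde10a exceeded that of 95.7% of genes. The range of Six3 exceeded that of 98.6%, of Drd1 98.8% and of Isl1 99.4%. In the CSS cohort the ranges were narrower for every one of the genes, at 1.71-fold for Drd1, 3.14-fold for Drd2, 2.304-fold for Adora2a, 2.29-fold for Ppp1r1b, 2.14-fold for Rgs9, 2.80-fold for Pde10a, 2.50-fold for Penk, 3.33-fold for Six3 and 4.77-fold for Isl1, beside a median of 1.61-fold over all genes. Drd1 there exceeded 57.8% of genes and Isl1 96.9%.

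The same libraries were low for every gene in the T2D cohort. T2D library 4 and T2D_control libraries 1, 4 and 6 were the 4 lowest of 12 for all 9 genes. Averaged over the 9 genes, log2 CPM relative to the T2D_control mean was -1.45 in T2D library 4, and -0.39, -0.40 and -1.39 in T2D_control libraries 1, 4 and 6. Drd2, for example, had 3.12 CPM in T2D library 4, and 15.1, 8.27 and 4.84 CPM in T2D_control libraries 1, 4 and 6. The other 5 T2D libraries lay between 0.79 and 1.33 on the averaged scale, and T2D_control libraries 2, 3 and 5 at 0.27, 1.24 and 0.67. High libraries were thus found in both groups, and so were low ones. RIN was 9.0 in T2D library 4 and between 8.7 and 9.4 in the other 5 T2D libraries. It was 9.7, 9.2 and 9.8 in the low T2D_control libraries. In T2D_control libraries 2, 3 and 5 it was 9.2, 8.5 and 9.8, with library 3 the highest of its group for the averaged genes. The part that RNA integrity plays in these levels was tested only as a covariate in the fits described below, and the part of the dissection was not tested.

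In the CSS cohort no library was low for all genes to the same degree. CSS library 3 was the lowest of 16 for Drd2, Ppp1r1b, Rgs9, Pde10a and Penk, and averaged -0.60 relative to the CSS_control mean on the log2 scale. CSS library 2 was below that mean for all 9 genes and averaged -0.44. CSS_control libraries 5, 6 and 8 were also below the CSS_control mean for all 9 genes and averaged -0.50, -0.46 and -0.34. CSS_control library 2, the most deeply sequenced of the cohort at 37.5 M counts, was the highest of 16 for 6 genes and averaged 0.46, while CSS_control libraries 1 and 7 averaged 0.43 and 0.31. No CSS library averaged above 0.11, so the highest positions were held by controls and the low ones by both groups.

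**Figure D2:**
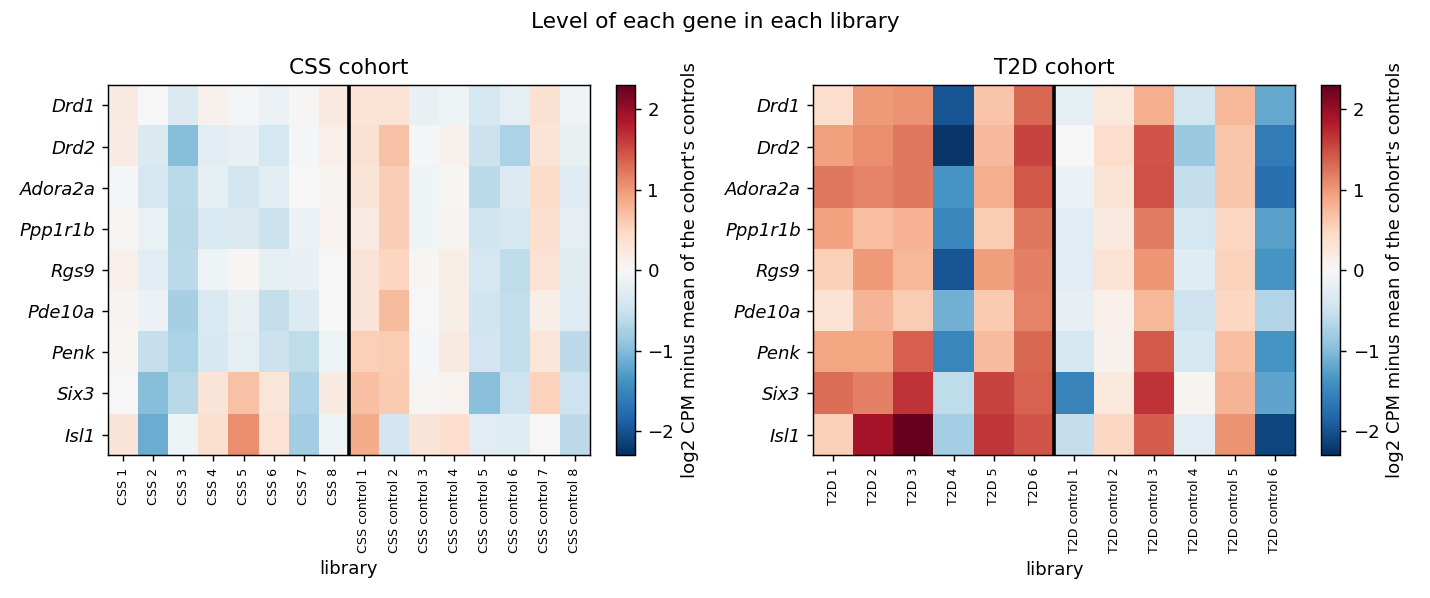
Log2 CPM of each gene in each library minus the mean of the cohort's controls; treated mice stand left of the black line and controls right of it, and the colour scale ends at 2.3 in either direction. T2D library 4 and T2D_control library 6 are low in nearly every row, while CSS libraries 2 and 7 are low mainly for Six3 and Isl1.

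Spread beyond counting noise, given as edgeR's biological coefficient of variation (the relative SD between mice of 1 group), was high for the genes' expression levels. In the T2D cohort it was 0.551 for Drd1, 0.668 for Drd2, 0.601 for Adora2a, 0.524 for Ppp1r1b, 0.553 for Rgs9, 0.396 for Pde10a, 0.587 for Penk, 0.581 for Six3 and 0.666 for Isl1, beside a median of 0.151 over all genes. In the CSS cohort it was 0.152 for Drd1, 0.255 for Drd2, 0.208 for Adora2a, 0.196 for Ppp1r1b, 0.194 for Rgs9, 0.230 for Pde10a, 0.248 for Penk, 0.358 for Six3 and 0.370 for Isl1, beside a median of 0.122. Divided by the value fitted for genes of like level, the members lay between the 97.7th and 99.8th percentile of all genes in the T2D cohort and between the 93.6th and 98.9th in the CSS cohort.

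Chronic social stress changed none of the 9 genes past the threshold (edgeR's quasi-likelihood test, adjusted p under 0.05 over 15097 genes). Of all genes, 4.52% passed, 318 higher (2.11%) and 365 lower (2.42%). DESeq2 and limma-voom also called 0 of the 9. The fold changes leaned low: 8 of 9 were negative, with a median of -0.27 on the log2 scale beside 0.01 over all genes. Penk had the smallest p, with a log2 fold change of -0.42 (95% confidence interval -0.80 to -0.04, unadjusted p = 0.0329, adjusted p = 0.188). It averaged 195 ± 36.7 CPM in CSS mice and 260 ± 83.9 CPM in CSS_control mice (SD, n = 8 each). No other member had an unadjusted p under 0.05, which 21.5% of all genes had. Pde10a stood at -0.31 (-0.66 to 0.04, adjusted p = 0.293), Adora2a at -0.28 (-0.59 to 0.04, adjusted p = 0.299), Ppp1r1b at -0.27 (-0.57 to 0.03, adjusted p = 0.278), Drd2 at -0.27 (-0.66 to 0.12, adjusted p = 0.429) and Rgs9 at -0.18 (-0.48 to 0.11, adjusted p = 0.480). Drd1 lay near 0, at -0.01 (-0.24 to 0.22, adjusted p = 0.971), with means of 91.98 ± 11.3 CPM in CSS mice and 92.4 ± 18.8 CPM in CSS_control mice. Six3 had -0.13 (-0.69 to 0.42) and Isl1 0.06 (-0.51 to 0.63). Without CSS_control library 2 the values of Drd2, Rgs9 and Pde10a shrank to -0.16, -0.11 and -0.19. Without CSS_control library 6 the same values grew to -0.35, -0.25 and -0.38.

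Diabetes changed none of the genes past the threshold either, and 0% of the 15054 genes tested passed in that cohort (edgeR, with 879 genes or 5.84% at an unadjusted p under 0.05; DESeq2 called 4). All 9 log2 fold changes were positive, with a median of 0.58 beside 0.00 over all genes. Isl1 had the largest, 1.096 (95% confidence interval -0.13 to 2.32, adjusted p = 0.825), with 7.90 ± 4.56 CPM in T2D mice and 3.65 ± 2.60 CPM in T2D_control mice (SD, n = 6 each). Six3 had 0.83 (-0.22 to 1.87), Adora2a 0.65 (-0.47 to 1.77), Penk 0.58 (-0.52 to 1.69), Drd2 0.58 (-0.65 to 1.82), Drd1 0.53 (-0.49 to 1.56), Rgs9 0.50 (-0.53 to 1.53), Ppp1r1b 0.46 (-0.52 to 1.43) and Pde10a 0.44 (-0.28 to 1.17), with adjusted p-values of 0.838 to 0.887. The intervals reach from below no change to more than a doubling on the linear scale for every gene, so that changes of that size were not detectable with this spread. For each gene 5 of 6 T2D libraries lay above the T2D_control median and T2D library 4 below it. When T2D library 4 was left out, the adjusted p was 0.817 for all 9. Isl1 then had a log2 fold change of 1.31 and Drd1 of 0.76. Without T2D_control library 3, Drd2 had 0.98, Adora2a 1.06, Ppp1r1b 0.78, Penk 0.98 and Six3 1.34. Other libraries acted the opposite way: without T2D_control library 6, Drd2 had 0.38, Ppp1r1b 0.28 and Rgs9 0.32, and without T2D library 6, Pde10a had 0.29. None passed in any of these fits. With RIN as a covariate the 9 values lay between 0.32 and 0.998 and none passed.

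**Figure D3:**
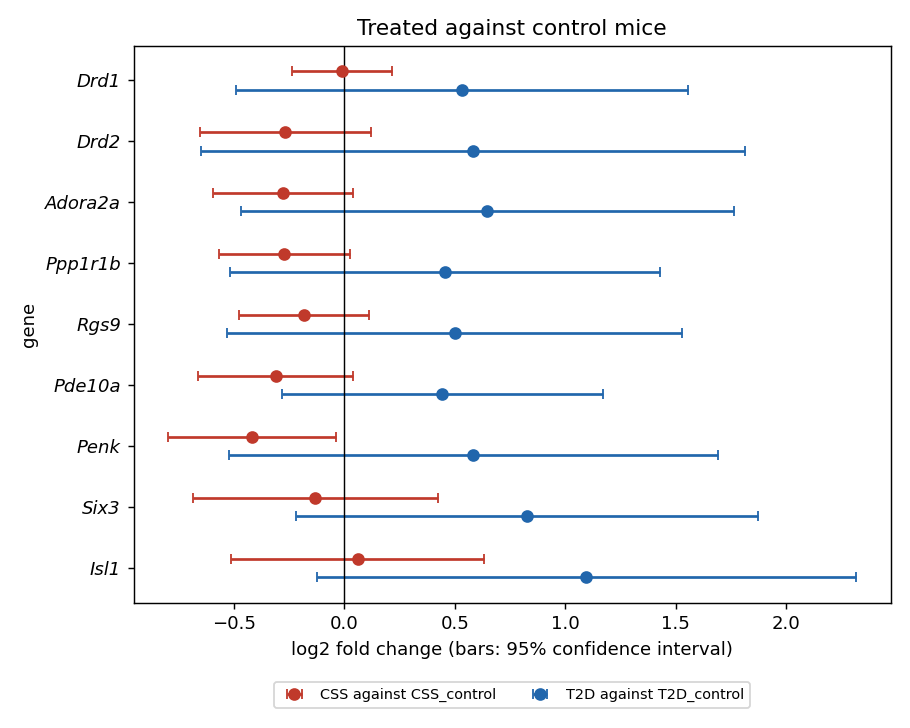
Log2 fold change of each gene in CSS against CSS_control mice and in T2D against T2D_control mice; points are estimates and bars 95% confidence intervals. The CSS points lie at or left of 0 apart from Isl1, the T2D points lie right of it, and only the CSS bar of Penk leaves out 0.

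The cohorts leaned opposite ways, and the difference itself was tested across 14888 genes, of which 12 passed (0.0806%), 7 higher (0.047%) and 5 lower (0.0336%). None of the 9 genes did. The CSS change minus the T2D change was negative for all of them, from -0.55 for Drd1 to -1.04 for Isl1, with a median of -0.86 beside -0.01 over all genes. Adjusted p-values lay between 0.395 for Pde10a and 0.638 for Drd1. Pde10a had a difference of -0.76 (95% confidence interval -1.51 to -0.02) with an adjusted p of 0.395 by edgeR. Its unadjusted p of 0.0451 in that fit was the only one under 0.05 among the members, a level which 12.4% of all genes had. Without T2D_control library 3 the difference of Six3 was -1.48, and without T2D_control library 6 it was -0.77, against -0.96 with all libraries. The 2 groups of a cohort overlapped for every member in both cohorts; 0.609% of all genes in the CSS cohort and 0.146% in the T2D cohort had groups that did not.

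Because Drd1 lay near 0 under stress while 6 of the genes leaned lower, the ratio of each gene to Drd1 in the same library was compared between groups. This was chosen after the values were seen. Drd1 was taken as the divisor because it had not fallen, so lower ratios of the other genes follow in part from that choice. The exact p-values under stress do not allow for it, and neither does the share over all genes set beside them. A ratio within a library does not depend on how the library is scaled, and all 8 ratios share the Drd1 values. Ppp1r1b stood at 1.81 times the Drd1 level in CSS mice and 2.16 times in CSS_control mice (geometric means), a log2 difference of -0.26 (two-sided exact permutation test over libraries, p = 0.00155). For Adora2a the ratio was 0.424 in CSS mice and 0.502 in CSS_control mice (-0.25, exact p = 0.00575), for Penk 2.10 and 2.73 (-0.38, exact p = 0.00901) and for Pde10a 4.70 and 5.73 (-0.29, exact p = 0.0146). In each of these 4 all 8 CSS libraries lay below the CSS_control mean, and the groups overlapped. Drd2 (-0.24, exact p = 0.0566) and Rgs9 (-0.16, exact p = 0.0747) leaned the same way, while Six3 (-0.12, exact p = 0.628) and Isl1 (-0.02, exact p = 0.953) had wide spreads. The same ratio was formed for the 15096 other genes of the table, of which 4.84% had p under 0.05 and 0% passed after adjustment, so that none of the 4 passed over all genes (adjusted p 0.733 to 0.948). In the T2D cohort, Isl1 had the largest difference of the ratio, with 0.0815 in T2D mice and 0.0475 in T2D_control mice (0.78, exact p = 0.0325, adjusted p = 0.826), and all 6 T2D libraries lay above the T2D_control mean. Without 1 library its exact p reached up to 0.0671. Six3 (0.67, exact p = 0.0779) and Adora2a (0.34, exact p = 0.113) also had all 6 T2D libraries above the T2D_control mean, and Penk had 0.22 (exact p = 0.186) and Drd2 0.15 (exact p = 0.457). The share of genes with p under 0.05 there was 0.0664%. Drd1, which differed 9.97-fold between libraries of that cohort, enters every one of these ratios. This share therefore does not show how unusual the p of Isl1 is. The ratios were also not centred on 0 there. Over all genes the median log2 difference was -0.406, beside -0.0046 in the CSS cohort. Ppp1r1b, Rgs9 and Pde10a had nearly the same geometric mean of the ratio to Drd1 in T2D and T2D_control mice. Their log2 differences were 0.05, 0.00 and -0.01, with exact p of 0.820, 0.991 and 0.950. Single libraries differed more: the Pde10a ratio spanned 3.87 to 9.76 in T2D mice and 4.31 to 7.49 in T2D_control mice. Of 6 T2D libraries, 5 lay below the T2D_control mean for Pde10a, 4 for Ppp1r1b and 3 for Rgs9.

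The genes moved together between libraries of 1 group, most of all in the T2D cohort. After taking off the group means, Pearson's r between pairs of genes across its 12 libraries had a median of 0.954 over 36 pairs (0.804 to 0.990). All 36 pairs had an adjusted p under 0.05, both for Pearson's r and for Spearman's rho (permutation tests adjusted over the 36 pairs). The share of pairs of other genes that pass the same test is not given here. Among 12318 other genes of at least 4 CPM in both cohorts, 2.21% had an absolute r above 0.8 with the members' mean. Drd1 and Drd2, which mark different pathways, had r = 0.977 and rho = 0.965 (permutation p = 1e-05, the smallest possible, and 2.0e-05). Without the 2 libraries farthest from the median, the median r was 0.872 and that of Drd1 with Drd2 0.893. Within T2D mice alone the median r was 0.965, and within T2D_control mice 0.968. Leaving out T2D library 4 lowered the pooled median to 0.916.

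In the CSS cohort the genes of mature projection neurons moved together and the transcription factors did so less. Over the 21 pairs among Drd1, Drd2, Adora2a, Ppp1r1b, Rgs9, Pde10a and Penk the median r across 16 libraries was 0.893 (0.815 to 0.955), and all 21 passed for both measures. Without the 2 farthest libraries their median was 0.884, and it was 0.859 within CSS mice and 0.928 within CSS_control mice. Six3 had a median r of 0.664 with the other 8 genes, which was 0.307 within CSS mice and 0.920 within CSS_control mice. Isl1 had a median of 0.154 with the other 8, from -0.02 with Ppp1r1b to 0.73 with Six3, and Six3 was its only partner to pass (rho = 0.700, adjusted permutation p = 0.00188 for r and 0.00522 for rho). The pair kept r = 0.685 without the 2 farthest libraries, and had r = 0.914 within CSS mice and 0.499 within CSS_control mice. Over all 36 pairs, 29 passed for r and 28 for rho, again without the share over pairs of other genes. Of the same 12318 other genes, 0.503% had an absolute r above 0.8 with the members' mean in this cohort.

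**Figure D4:**
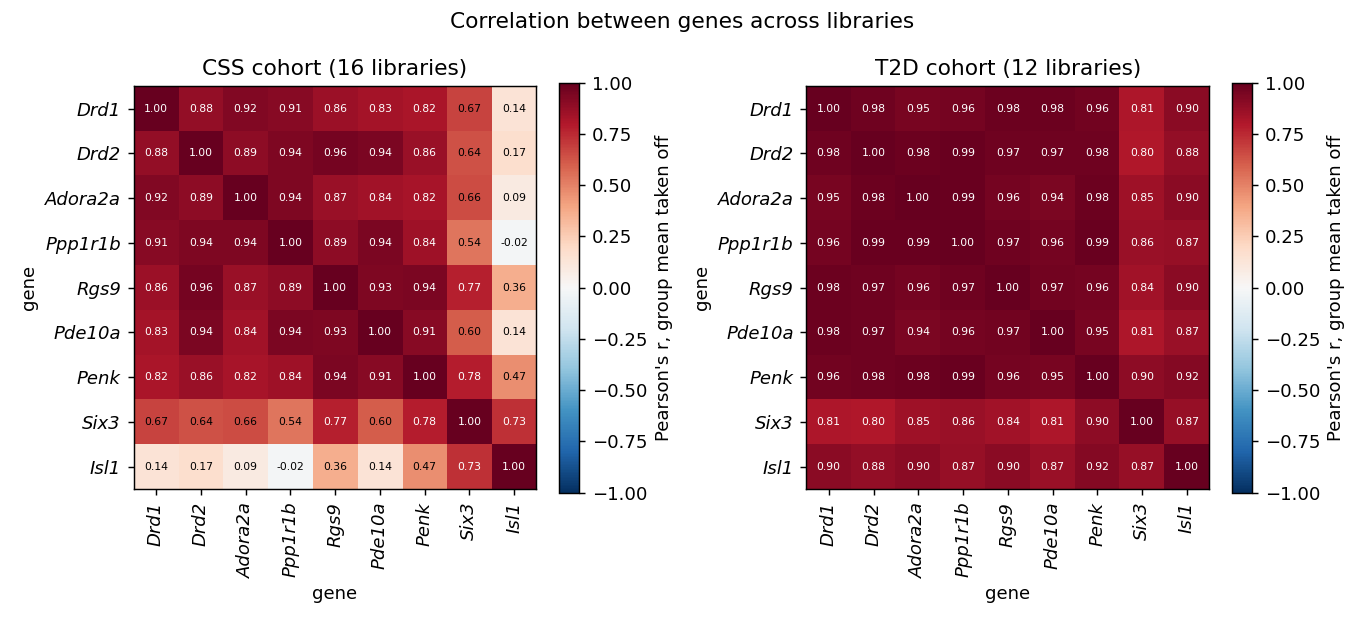
Pearson's r between the 9 genes across libraries, with the mean of each group taken off; rows and columns are genes and the colour and figure in each cell are r. All cells are high in the T2D cohort, while in the CSS cohort the Isl1 row is pale except at Six3.

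Isl1 in the CSS cohort tracked genes of cholinergic neurons, a comparison chosen after the values were seen. Its r with the mean of 7 cholinergic genes was 0.867 across 16 libraries, and 0.335 with the mean of the other 8 striatal genes. Drd1 had the reverse, with 0.273 and 0.845. Single genes with which Isl1 moved were Lhx8, a transcription factor of forebrain cholinergic neurons, with r = 0.905, Ecel1 with 0.867, acetylcholinesterase (Ache) with 0.797, the choline transporter Slc5a7 with 0.761, and choline acetyltransferase (Chat) with 0.529. Isl1 was highest in CSS library 5, at 14.7 CPM, where Lhx8 was 7.31 CPM, and lowest in CSS library 2, at 3.08 CPM, where Lhx8 was 1.35 CPM. Among controls, Isl1 was 12.6 CPM and Lhx8 7.50 CPM in CSS_control library 1, and 4.54 CPM and 1.98 CPM in CSS_control library 8. CSS library 5 and CSS_control library 1 thus held the highest values of both genes, and CSS library 2 the lowest. Chat did not follow as closely: it was highest in CSS library 8, at 12.6 CPM, where Isl1 was 6.42 CPM, and was 7.19 CPM in CSS library 5. Other lists also moved with Isl1 in this cohort. Its r was 0.795 with the mean of midbrain dopamine genes and 0.778 with that of septum, thalamus and hypothalamus. It was 0.647 with genes of the olfactory bulb and rostral stream and 0.610 with those of choroid plexus and ependyma. Negative values were found for cortical excitatory neurons (-0.685), microglia (-0.627), DARPP-32 and cyclic AMP signalling (-0.552) and myelin (-0.495). In the T2D cohort the distinction was not seen, since Isl1 had r = 0.936 with the cholinergic mean and 0.914 with the other striatal genes, and Drd1 had 0.901 and 0.972. These correlations are descriptions over libraries that share their scaling.

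The genes nearest to the 9 across libraries were sought among 12318 others with a mean of at least 4 CPM in both cohorts, by r with the mean of the 9 after taking off group means. In the T2D cohort the 10 nearest included Pde1b (r = 0.995), Gpr6, Slc35d3, Asic4, Rarb, Prkch, Adcy5, Rxrg and Rasd2 (0.977). The list of other striatal genes used here already held 7 of the 10. In the CSS libraries, which did not choose them, these 10 had r between 0.592 for Rasd2 and 0.929 for Slc35d3, with a median of 0.830. In the CSS cohort the 10 nearest were Gprin3 (r = 0.947), Slc35d3, Unc13c, Gng7, Adcy5, Bcr, Dgkb, Prkch, Pard3 and Sytl5 (0.867), 2 of them in that list. Their r in the T2D libraries lay between 0.697 for Unc13c and 0.986 for Slc35d3, with a median of 0.959. Adcy5 is the adenylyl cyclase, and Gng7 a G-protein subunit, through which dopamine and adenosine receptors of the striatum signal. The 50 nearest genes of the cohorts had 16 in common. An r above 0.9 was reached by 89 genes in the T2D cohort and by 5 in the CSS cohort.

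Of a list of 30 other striatal genes, the mean followed the 9 closely and single genes less so. The mean of the list had r = 0.997 with the mean of the 9 in the T2D cohort and 0.971 in the CSS cohort. Single genes had a median r of 0.947 in the T2D cohort, from 0.0056 for Ace to 0.995 for Pde1b, and of 0.682 in the CSS cohort, from 0.282 for Drd3 to 0.909 for Gng7. None of the 30 passed in either comparison. Under stress 25 of the 30 log2 fold changes were negative, with a median of -0.16, and under diabetes 29 of 30 were positive, with a median of 0.42, beside 0.01 and 0.00 over all genes. Those with the smallest p under stress were Meis2, at -0.33 (adjusted p = 0.0923), Tmem158, at -0.29 (adjusted p = 0.107), and Actn2, at -0.27 (adjusted p = 0.156). Under diabetes they were Ebf1, at 0.57, Strip2, at 0.50, and Oprm1, at 0.41, with adjusted p of 0.825 to 0.838. Tac1 and Pdyn, peptide precursors of the direct pathway, had -0.08 and -0.08 under stress and 0.60 and 0.43 under diabetes. Gpr6, a receptor of the indirect pathway, had -0.29 and 0.57. The 26 genes of DARPP-32 and cyclic AMP signalling, most of them transcribed in neurons at large, moved little: none passed, and their medians were -0.05 under stress and -0.03 under diabetes. Those with the smallest p were Ppp2r5d (-0.16, adjusted p = 0.103), Cdk5 (-0.14, adjusted p = 0.185) and Prkar2a (-0.20, adjusted p = 0.212) under stress, and Csnk1e (-0.15), Pde8b (0.19) and Pde1a (-0.25) under diabetes, the last group each with an adjusted p of 0.825. The r of that list's mean with the 9 genes was 0.201 in the CSS cohort and 0.635 in the T2D cohort, where Pde7b stood highest of its members (0.954).

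Of 7 cholinergic genes tested, none passed, and their medians were 0.10 under stress and 0.82 under diabetes. Among those with the smallest p were Slc5a7 (0.16) and Chat (0.14) under stress (adjusted p = 0.708 and 0.743), and Ecel1 (0.89) and Ache (0.21) under diabetes (adjusted p = 0.829 and 0.844). Their summed level spanned 55.2 to 124 CPM in CSS mice, 72.2 to 129 CPM in CSS_control mice, 51.3 to 150 CPM in T2D mice and 42.7 to 108 CPM in T2D_control mice. The mean of the list had r = 0.916 with the 9 genes in the T2D cohort and 0.544 in the CSS cohort. Of 3 midbrain dopamine genes tested, none passed (r = 0.526 in the T2D cohort and 0.192 in the CSS cohort). For the 9 genes themselves the sum spanned 803 to 1352 CPM in CSS mice, 902 to 1966 CPM in CSS_control mice, 285 to 1739 CPM in T2D mice and 369 to 1529 CPM in T2D_control mice.

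Lists of cortical and other cells had lower correlations with the striatal genes than the list of other striatal genes had. The mean of 19 cortical excitatory genes had r = -0.155 with the mean of the 9 in the T2D cohort and -0.130 in the CSS cohort. Within that list, Syt6, a gene of deep-layer neurons, had r = 0.942 and 0.817, while Etv1 had -0.787 in the T2D cohort, and Slc17a7 had -0.517 in the T2D cohort and -0.609 in the CSS cohort. The summed level of the list spanned 2005 to 2979 CPM in CSS mice, 2037 to 2694 CPM in CSS_control mice, 1753 to 2845 CPM in T2D mice and 2152 to 2710 CPM in T2D_control mice. Of it, Rasgrf2 rose under stress (log2 fold change 0.22, adjusted p = 0.0331). Among 17 inhibitory neuron genes, Npy fell by 0.46 and Sst by 0.30 on the log2 scale under stress (adjusted p = 0.0243 and 0.0279). Gad2, an enzyme of GABA synthesis that striatal projection neurons also carry, had r = 0.907 with the 9 genes in the T2D cohort. That was the highest r of the inhibitory list there, whose median was 0.257 and whose lowest was -0.828, for Htr3a. Microglial genes fell under stress for 4 of 9, C1qa, C1qb, C1qc and Csf1r, by 0.45, 0.39, 0.38 and 0.23, and that list's mean had r = -0.252 with the 9 genes in the CSS cohort. In the T2D comparison, 10 of 12 genes of the olfactory bulb and rostral stream had positive log2 fold changes, with a median of 0.57 near that of the 9 genes, and none passed. Those with the smallest p were Trh (1.50), Cdhr1 (1.91) and Dcx (0.39), each with an adjusted p of 0.825. Doc2g (1.68) and Th (1.35), named after their values were seen, had the same adjusted p, and of these 5 genes all but Dcx lay above the 1.096 of Isl1. Cdhr1 spanned 2.20 to 50.2 CPM in T2D mice and 2.14 to 5.98 CPM in T2D_control mice. The 10 genes of septum, thalamus and hypothalamus were all positive as well, with a median of 0.40. Of the 19 cortical excitatory genes, 7 were positive and 12 negative there, with a median of -0.056. Among them, Nr4a2 had 0.51, Neurod6 -0.68 and Fezf2 -0.61 (adjusted p = 0.825 each). Astrocytic Slc1a2 and Fgfr3 rose under stress by 0.22 and 0.23, Nrp1 of the olfactory list by 0.33 and endothelial Slco1a4 by 0.24, and the means of these 3 lists had r of -0.019, 0.253 and -0.056 with the 9 genes. Myelin genes (r = 0.098 in the CSS cohort and 0.278 in the T2D cohort), choroid plexus and ependymal genes (0.195 and 0.119) and genes of septum, thalamus and hypothalamus (0.114 and 0.174) had no member past the threshold. Endothelial genes had the most negative list mean in the T2D cohort, with r = -0.609, beside -0.412 for astrocytes, 0.031 for microglia, 0.543 for inhibitory neurons and 0.266 for the olfactory list. The part of any of these cells in the levels of the 9 genes was not tested.

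**Figure D5:**
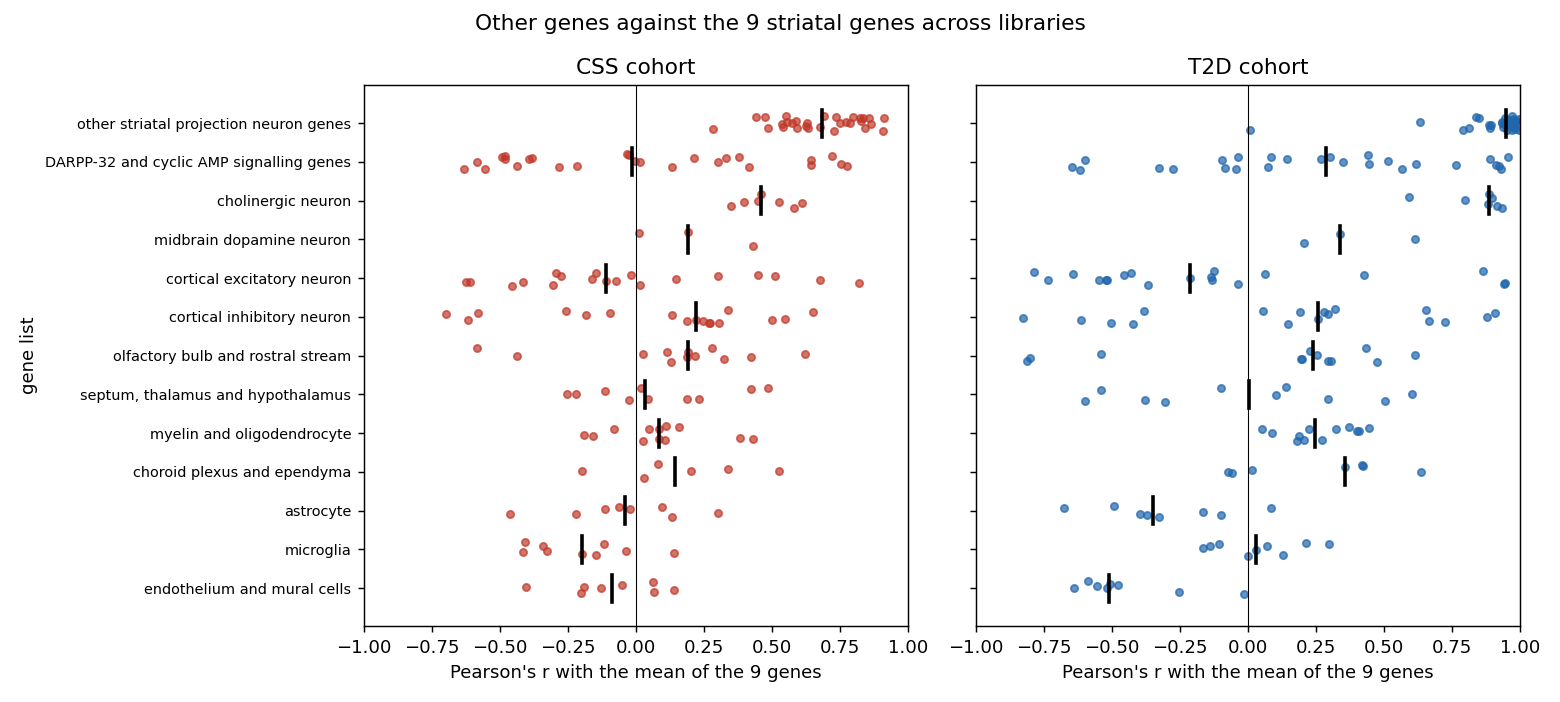
Pearson's r of each gene of 13 lists with the mean of the 9 striatal genes across libraries of the CSS cohort (16 libraries) and the T2D cohort (12 libraries), group means taken off; points are genes and bars are list medians. The median of other striatal genes is 0.947 in the T2D cohort, with Ace at 0.0056 and Ebf1 at 0.631 well below it, and 0.682 in the CSS cohort; cholinergic genes lie high there and lower in the CSS cohort, and cortical excitatory genes spread to both sides of 0.

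Calls of other genes were also counted with the level of the 9 genes in the model. When the mean log2 CPM of the 9 was added to the model as a covariate, an analysis chosen after the data were seen, 388 genes outside the 9 passed under stress (188 higher and 200 lower), against 683 without it, and 362 of them were among the 683. Genes with an unadjusted p under 0.05 under stress changed less, to 3075 with the covariate from 3244 without it (edgeR). The number passing under stress also shifted when single libraries were left out, as given below. Under diabetes 0 genes passed with and without the covariate (edgeR), and 639 genes with it, against 879 without it, had an unadjusted p under 0.05. A covariate that itself differs between groups can also remove a group difference, and these uses cannot be told apart here.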

How the data were processed

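Total RNA of frontal cortex from 28 male mice was sequenced after ribosomal depletion (TruSeq Stranded Total RNA with Ribo-Zero Gold, per the labels' protocols). Estimated counts of each gene were deposited by the authors, with the CSS and T2D cohorts in separate tables. Salmon 1.1.0 and build mm10 are named per the submitters' processing notes. The sources used here do not state how transcripts were summed, whether values were scaled for length or whether strand was used. Groups came from the titles and treatment labels.

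The estimated counts, as deposited, were rounded to whole numbers and tested with edgeR 4.0.16 (R 4.3.3; robust quasi-likelihood test, TMM scaling, Benjamini-Hochberg over all genes, threshold 0.05). Its default filter removed 0 genes, so that all 9 members passed. Standard errors and intervals were derived from the F statistic. The fit was tested on simulated data. Single-gene adjusted p-values are from edgeR unless another tool is named. CPM used the TMM-scaled totals, and CPM per kb the merged exons of GENCODE M21. Correlations used log2 CPM with a prior count of 2 and 100000 permutations; numerical work used numpy 2.4.6 and scipy 1.17.1 under Python 3.11.15, and figures matplotlib 3.10.9. No count-based interval is given, since estimated counts are not whole reads.

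The members and gene lists were chosen with earlier results of these data known. Some genes stand in more than 1 list, so the lists are not independent. Foxp2 is in the other striatal and cortical excitatory lists, and Th in the midbrain dopamine and olfactory lists. Slc17a6 is in the olfactory list and that of septum, thalamus and hypothalamus. Calb2 is in both of those and in the inhibitory list. Named were the 9 members, the listed genes past the threshold or otherwise the 3 of smallest p (for lists of other cells with no call, counts only), genes that check the tissue, and the 10 genes nearest to the members in each cohort; others were chosen after their values were seen. Some genes named by this rule are not reported here. Alternatives were RLE and upper quartile scaling, DESeq2 1.42.0, limma-voom (limma 3.58.1), no filter, a filter at 5 CPM, a fit that is not robust, RIN as a covariate, a replicate block, 1 fit over both cohorts and leaving out each library in turn.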

Additional observations from a re-analysis of the deposited data

Results flagged for a closer look

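Of 36 combinations of gene and group, 1 held a library far from the others by Dixon's criterion, and chance alone is expected to give about 1 in 20. Six3 was 1.09 CPM in T2D library 4, while the other 5 T2D libraries lay between 3.89 and 5.53 CPM. The gap made up 0.631 of the range of the group, against a critical value of 0.625. T2D library 4 was also the lowest of its group for the other 8 genes.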

How the results depend on the processing

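In every alternative, each of the 9 genes stayed on the uncalled side of the threshold in all 3 comparisons. Most kept their direction; only Drd1 and Isl1 under stress reversed, both near 0: Drd1 had a log2 fold change of 1.89e-05 with limma-voom, 0.0073 with the replicate block and -0.063 to 0.040 without 1 library, and Isl1 -0.0036, -0.0082 and -0.15 to 0.22. Without 1 library, the ratio to Drd1 reversed for Six3 (-0.23 to 0.0081) and Isl1 (-0.18 to 0.14) in the CSS cohort and for Ppp1r1b (-0.047 to 0.12), Rgs9 (-0.056 to 0.055) and Pde10a (-0.19 to 0.090) in the T2D cohort. Counts over all genes moved more. Under stress 683 genes became 1313 with DESeq2, 388 outside the members with their mean as a covariate, and 222 to 794 without 1 library; the count was 360, 222 and 439 without CSS libraries 5, 6 and 8, and 276, 251, 402, 429 and 414 without CSS_control libraries 1 to 5. Under diabetes it was 4 with DESeq2 and 0 without any 1 library. For the difference between cohorts 12 became 6 with upper quartile scaling, 130 with DESeq2, 23 with the stricter filter, which left out Six3 in the fits of single cohorts, 0 with limma-voom, with a fit that is not robust and with RIN, and 0 to 32 without 1 library. The cause of these shifts was not tested. The median correlation between members lay between 0.809 and 0.864 in the CSS cohort and 0.916 and 0.960 in the T2D cohort without 1 library.

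The labels do not say that equal replicate numbers pair the mice. Same-numbered libraries had r from -0.16 to 0.33 in the CSS cohort and from -0.01 to 0.13 in the T2D cohort. Of them, 2 of 8 and 0 of 6 matched their own number best. These values do not show whether same-numbered mice shared a cage or day. The replicate block gave 478 genes under stress, 0 under diabetes and 32 for the difference. With 6 libraries a group and the spread of the T2D cohort, intervals of the members are several-fold wide, so that absence of a call there does not show equal levels.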
